A study of Mus musculus with 6 samples.

Results

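This report describes 10 genes of liver X receptor (LXR) signalling and fatty acid synthesis in RAW264.7 cells after knockdown of Nop16. They were chosen by gene symbol, out of 55401 genes listed in the count tables, and all 10 passed the filter on low counts. They are the LXR genes Nr1h3 and Nr1h2, the sterol export genes Abca1 and Abcg1, the ubiquitin ligase gene Mylip, the lipogenic transcription factor gene Srebf1, and the enzyme genes Fasn, Scd1, Scd2 and Lpcat3. RAW264.7 is a macrophage line from the ascites of a mouse with an Abelson leukaemia virus tumour. RNA-seq counts came from 3 libraries titled as control siRNA, with the genotype tag WT, and 3 titled as Nop16 siRNA, with the tag Nop16 KD. The treatment tag reads "no" in all 6, and the 1 treatment text, shared by all 6, gives a Nop16 siRNA at 20 nM for 3 days with a lipid transfection reagent. The sources used here do not state how the control cells were transfected. Both groups were the same line, kept in medium with fetal bovine serum. Separate cultures for the replicates are nowhere stated, and the p-values therefore measure the spread among these 6 libraries only, some or all of which may be technical.

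The liver X receptors are nuclear receptors that bind oxidised sterols and desmosterol, pair with a retinoid X receptor, and sit on direct repeats of a short DNA unit in the control regions of their target genes. In macrophages they are best known for sterol export through Abca1 and Abcg1, for removal of lipoprotein receptors through Mylip, and for lipogenesis through Srebf1 and its target enzymes Fasn and Scd1. The other sterol sensor of the cell is the SREBP system, which works in the opposite situation: it is activated when membrane sterol is low, and it drives sterol synthesis and lipoprotein uptake.

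Promoter windows were available for 7 of the 10 genes in a RefSeq table on GRCm38.p6 (250 bases before and 50 after each annotated start). Those of Abca1, Fasn and Srebf1 held a shared 16-base element, shown first because its holders did not all respond in the same direction. It has a repeat unit TGACCG at its 5′ end and a unit at its 3′ end that reads TAACCC, with a 4-base spacer whose last bases are AG. That spacing is the one known for LXR elements. Against the unit AGGTCA read on the other strand, the 5′ unit differs by T6G and the 3′ unit by G2A and T6C, with positions counted from 1 at the 5′ end of each unit. In capitals, on the strand of each gene and with 7 flanking bases, the elements read as follows.
Abca1: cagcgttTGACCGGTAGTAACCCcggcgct
Fasn: gccacgaTGACCGGTAGTAACCCcgcctga
Srebf1: acgacagTGACCGCCAGTAACCCcagcgcg
They start at positions -67, -225 and -182 from the annotated start sites of Abca1 (chr4:53159947-53159962), Fasn (chr11:120824757-120824772) and Srebf1 (chr11:60210638-60210653), all on the minus strand. Searched on both strands with any bases in the first 2 spacer positions, the element occurred in 3 of 32851 windows (0.00913%), and these were the 3 just named. It was written down after these promoters had been read, so its rarity elsewhere describes the search and is no test. A looser form, with the first 5 bases of each unit and any 5 bases between them, was in 16 windows (0.0487%), among them that of the acyl-CoA synthetase gene Acsl3. A match in letters is a description and not a site of binding.

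The 250 bases upstream of each of these starts give the setting of the element, again with the element in capitals.
Abca1 upstream, chr4:53159896-53160145: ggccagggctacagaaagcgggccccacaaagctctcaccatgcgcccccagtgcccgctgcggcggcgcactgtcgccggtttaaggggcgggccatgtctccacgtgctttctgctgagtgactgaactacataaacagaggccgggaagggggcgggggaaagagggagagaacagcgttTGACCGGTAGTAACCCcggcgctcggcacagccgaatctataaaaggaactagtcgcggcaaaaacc
Fasn upstream, chr11:120824548-120824797: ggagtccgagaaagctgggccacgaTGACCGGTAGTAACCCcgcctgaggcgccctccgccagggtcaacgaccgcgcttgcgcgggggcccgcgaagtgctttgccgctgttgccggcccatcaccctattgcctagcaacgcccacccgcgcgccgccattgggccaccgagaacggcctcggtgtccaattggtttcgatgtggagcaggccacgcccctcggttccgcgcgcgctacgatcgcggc
Srebf1 upstream, chr11:60210472-60210721: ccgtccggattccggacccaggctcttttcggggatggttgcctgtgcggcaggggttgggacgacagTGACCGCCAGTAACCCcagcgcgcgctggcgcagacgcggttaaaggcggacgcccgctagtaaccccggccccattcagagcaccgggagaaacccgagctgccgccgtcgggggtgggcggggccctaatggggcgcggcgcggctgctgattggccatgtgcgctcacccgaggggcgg
The Srebf1 window belongs to 1 of 3 starts listed for the gene, and the counts, made per gene, do not separate their transcripts. Other motifs were searched on both strands in the same windows. The unit AGGTCA was in none of the 7 genes' windows and in 16.3% of all windows, and its exact direct repeat with a 4-base spacer, which contains it, was in none and in 0.0152%. The short sterol regulatory element TCACCCCA (1.56% of windows) and the longer core that contains it (0.0913%) were in none of the 7. Both were searched as exact strings, and forms with a changed base were not counted. The NF-Y box CCAAT was found in Fasn, Lpcat3, Mylip and Srebf1 (37.4% of all windows), the Sp1 box GGGCGG in Abca1, Lpcat3, Mylip and Srebf1 (35.7%), and the E-box CACGTG in Abca1 (7.15%).

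Total counts were 15601477 to 23061922 per library, and every control library was deeper than every Nop16 siRNA library. Nop16 itself stood at 388, 437 and 402 counts in the controls and at 61, 72 and 84 after its siRNA, or 22.4% of the control level (edgeR adjusted p = 2.94e-23). With edgeR at an adjusted p below 0.05, 6482 of 14269 genes (45.4%) were called, 23.0% higher and 22.4% lower, and the median absolute log2 fold change was 0.206. Of 12 macrophage markers, 10 were tested, 5 of them higher and 1 lower, with a summed level of 5482 to 5773 CPM (counts per unit of library size, the size scaled by TMM) in controls and 8507 to 8923 after Nop16 siRNA. The defining markers of hepatocytes (all 6 at or under 3 counts, Alb and Apoa1 at 0), adipocytes (Plin1 and Lep at 0) and epithelium (Krt8 and Krt18 at 0) were at or near 0. Of the fibroblast, T and NK cell, B cell and neutrophil markers, 4 were tested (Pdgfra, Blnk, S100a8, Csf3r) and none passed. Summed B cell markers stood at 37.9 to 42.6 CPM in controls and 38.5 to 43.3 after Nop16 siRNA, and summed neutrophil markers at 11.7 to 16.3 and 14.5 to 16.8. The part of these markers in the results was not tested. A count of 0 allows up to 0.13 to 0.192 CPM in a library (3 counts of its total), for counting error only.

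Of the 10 genes, 3 were higher after Nop16 siRNA (Abca1, Abcg1, Fasn), 5 were lower (Nr1h2, Mylip, Srebf1, Scd2, Lpcat3), and Nr1h3 and Scd1 did not pass. The 8 calls (80.0%) stand beside 45.4% called among all genes, and DESeq2 called 7 of the 10, beside 39.8%. Neither these shares nor those of the lists below were matched for expression level, on which the power to call a change depends. By mean CPM among all genes tested, the called genes stood at percentiles 56.3 (Mylip) to 99.4 (Scd2). Nr1h3 and Scd1 stood at 10.2 and 28.2. In 8 of the 10 genes the 3 libraries of one group lay wholly above the other, against 52.5% of all genes tested. The changes were small: the median absolute log2 fold change was 0.232, close to the 0.206 of all genes, and the median signed value was -0.11. No change reached 2-fold, and the sizes ran up to 0.52 on the log2 scale, for Abca1. In bulk RNA, fewer cells that express a gene and less of its RNA per cell cannot be told apart.

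Levels between genes are comparable only per length, as RPKM (CPM per kilobase of exon). In control libraries Scd2 stood far above the rest, at 208 to 215 RPKM, followed by Srebf1 at 36.7 to 39.1, Abcg1 at 34.6 to 35.9, Nr1h2 at 31.8 to 33.5, Fasn at 31.7 to 33.6 and Abca1 at 28.7 to 30.8. Nr1h2 and Fasn overlapped, and the other neighbours in that order did not. Lpcat3 (21.1 to 21.6 RPKM) and Mylip (10.3 to 10.9) came next, and Scd1 (1.31 to 1.61) and Nr1h3 (0.393 to 0.44) were at the bottom. After Nop16 siRNA the middle of the order had turned over. Abca1 was now second to Scd2, at 42.0 to 43.0 RPKM, and Srebf1, previously next after Scd2, now stood at rank 5 with 27.9 to 29.4, overlapping Nr1h2 at 26.4 to 29.6. Fasn (37.5 to 38.7 RPKM) and Abcg1 (36.5 to 38.5) lay between them and overlapped each other.

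**Figure D1:**
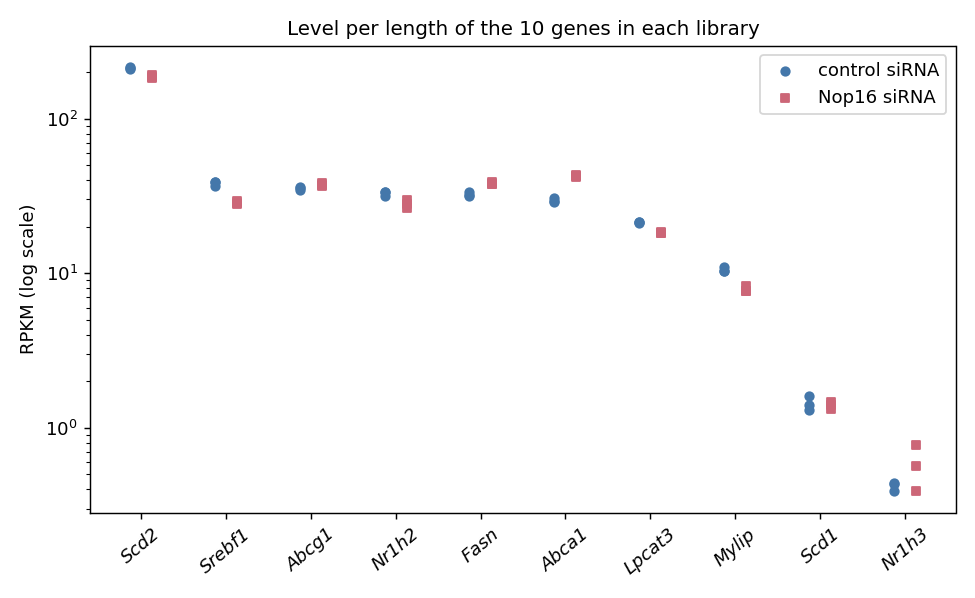
RPKM (log axis) of each gene in the 3 control siRNA libraries (circles) and the 3 Nop16 siRNA libraries (squares), 1 point per library, ordered by the control mean. Scd2 is the highest in both groups (208 to 215 and 184 to 192 RPKM), Scd1 and Nr1h3 the lowest, and in between Abca1 moves from rank 6 to rank 2 and Srebf1 from rank 2 to rank 5.

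The receptors came first. Nr1h2 encodes LXR beta, the widely expressed form, and was the LXR of these cells by a wide margin, while Nr1h3, which encodes LXR alpha, the form prominent in liver, fat and many tissue macrophages, was close to the limit of measurement. Nr1h2 (ENSMUSG00000060601, GRCm38 chr7:44549616-44553951, minus strand) had 2336, 2613 and 2238 counts in controls and 1539, 1629 and 1632 after Nop16 siRNA. In CPM these were 106, 112 and 112 against 99.4, 93.8 and 88.6. All 3 Nop16 siRNA libraries were lower than every control. The means were 110.4 ± 3.43 and 93.9 ± 5.41 CPM (SD, n = 3 each), a log2 fold change of -0.24 (SE 0.0433, edgeR adjusted p = 6.75e-06).

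Nr1h3 (ENSMUSG00000002108, chr2:91184061-91202834, minus strand) had 24, 23 and 22 counts in controls and 22, 17 and 36 after Nop16 siRNA, or 1.09, 0.989 and 1.11 against 1.42, 0.979 and 1.95 CPM. The groups overlapped, with Nop16 siRNA replicate 2 the lowest of the 6 libraries and replicate 3 the highest. The log2 fold change was 0.46 with a 95% interval from -0.21 to 1.12 (edgeR adjusted p = 0.272), and it was 0.17 without Nop16 siRNA replicate 3. At this depth a modest change of Nr1h3 in either direction was not detectable. Within a library there were 0.0088 to 0.0103 Nr1h3 counts for each Nr1h2 count in controls and 0.0104 to 0.0221 after Nop16 siRNA.

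The export pumps moved unequally. Abca1 encodes the transporter that loads cholesterol and phospholipid onto apolipoprotein A-I, and Abcg1 the one that passes sterol on to mature high-density lipoprotein. Abca1 (ENSMUSG00000015243, chr4:53030787-53159895, minus strand) stood at 297, 302 and 319 CPM in controls and at 435, 445 and 438 CPM after Nop16 siRNA. The lowest Nop16 siRNA library was far above the highest control. The means, 306 ± 11.6 and 439.7 ± 5.15 CPM (SD, n = 3 each), differed 1.44-fold, a log2 fold change of 0.52 (SE 0.0306, edgeR adjusted p = 2.67e-22). In size this log2 fold change lay at percentile 84.1 of all genes tested.

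Abcg1 (ENSMUSG00000024030, chr17:31057675-31117988, plus strand) had 262, 252 and 260.1 CPM in controls and 266, 271 and 281 CPM after Nop16 siRNA. The groups did not overlap, but control replicate 1 and Nop16 siRNA replicate 1 almost met. On the log2 scale it differed by 0.08 (SE 0.032, 95% interval 0.02 to 0.14, edgeR adjusted p = 0.0355). This call did not hold in DESeq2 (adjusted p = 0.0622), with scaling by library size only (0.14), without control replicate 2 (0.175) or 3 (0.0595), or without Nop16 siRNA replicate 3 (0.226). The count ratio of Abca1 to Abcg1, which needs no scaling, was 1.13, 1.2 and 1.23 in controls and 1.64, 1.64 and 1.56 after Nop16 siRNA. On the log2 scale the mean ratio differed by 0.44, with groups that did not overlap (exact two-sided permutation p = 0.1, the smallest that 3 against 3 libraries allow, and 0.12 adjusted over the 6 pairs compared).

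**Figure D2:**
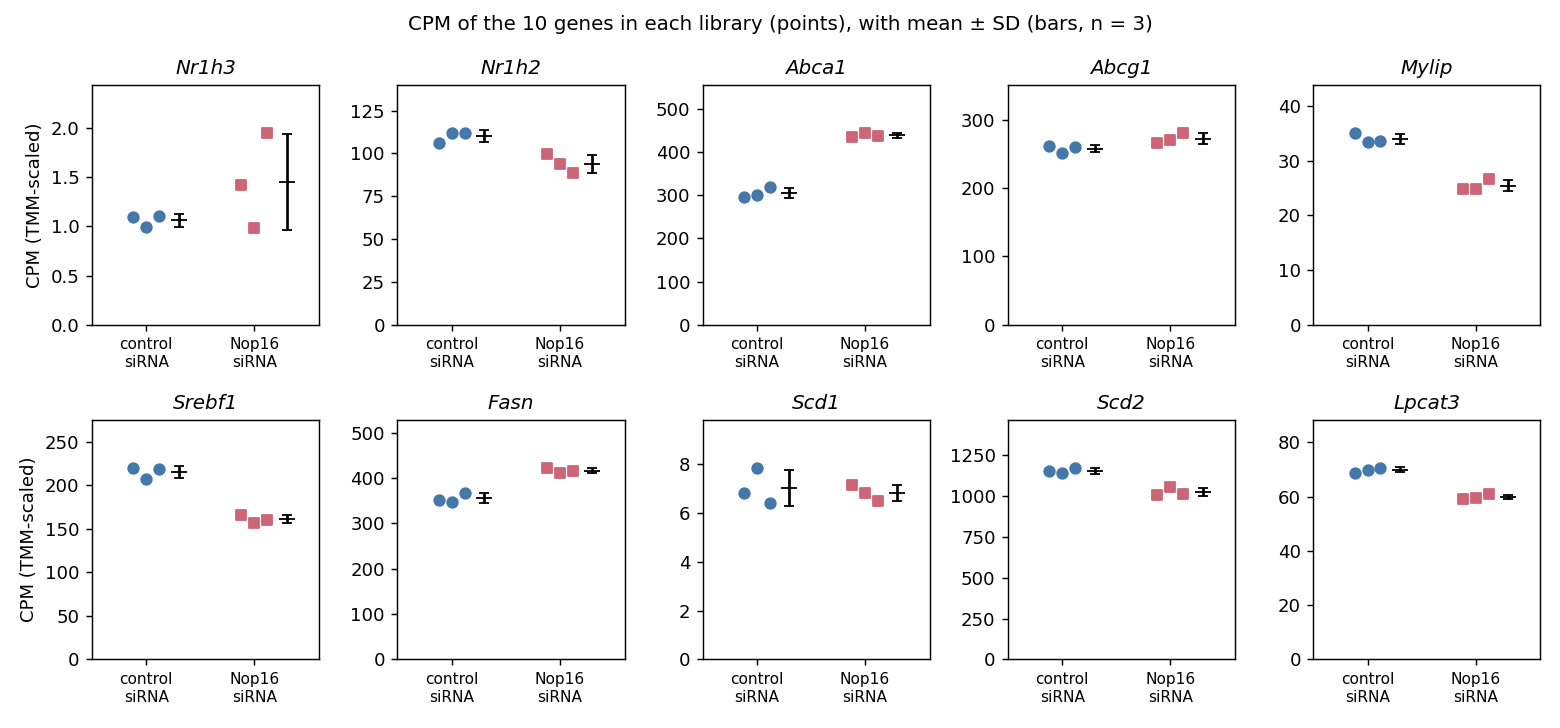
CPM of each of the 10 genes, with 1 panel per gene and the axis from 0, 1 point per library and the mean ± SD (n = 3) beside them. Abca1 and Fasn lie higher and Nr1h2, Mylip, Srebf1, Scd2 and Lpcat3 lower in all 3 Nop16 siRNA libraries, Abcg1 is separated only narrowly, and Nr1h3 and Scd1 overlap.

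Mylip, also called Idol, encodes the ubiquitin ligase that marks lipoprotein receptors for destruction when LXR is active. Mylip (ENSMUSG00000038175, chr13:45389742-45412022, plus strand) stood at 35.1, 33.4 and 33.6 CPM in controls and at 24.9, 24.8 and 26.6 CPM after Nop16 siRNA. Every Nop16 siRNA library was below every control. Its level fell to 74.8% of control, a log2 fold change of -0.42 (SE 0.0721, edgeR adjusted p = 1.88e-06). Lrp8, a receptor that Mylip targets, rose from 22.3 ± 0.348 to 28.9 ± 1.13 CPM, with every Nop16 siRNA library above every control (SD, n = 3 each, log2 fold change 0.37, edgeR adjusted p = 4.39e-05), and it is named here after its values were seen. The large scavenging receptor gene Lrp1 rose from 2133 ± 148 to 2390.1 ± 46.0 CPM (SD, n = 3 each, 0.16, edgeR adjusted p = 0.00303). The call for Lrp1 was lost without Nop16 siRNA replicate 1 (0.0677) or 2 (0.0744) and in limma-voom (0.0893). Vldlr, a further target of Mylip, had 0 counts in all 6 libraries.

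Srebf1 encodes SREBP1, the membrane-bound transcription factor of fatty acid synthesis, and its gene is a direct LXR target. Srebf1 (ENSMUSG00000020538, chr11:60199089-60222581, minus strand) had 4834, 4807 and 4351 counts in controls and 2566, 2728 and 2951 after Nop16 siRNA. In CPM this was 220.4, 207 and 219 against 166, 157 and 160.2, so the highest Nop16 siRNA library was well below the lowest control. The log2 fold change was -0.42 (SE 0.0351, 95% interval -0.49 to -0.35, edgeR adjusted p = 8.95e-16), the same size as for Mylip. Srebf2, the paralogue that drives sterol synthesis, stood at 377, 378 and 363 CPM in controls and 413, 391 and 393 CPM after Nop16 siRNA (log2 fold change 0.10, edgeR adjusted p = 0.00631). That small rise lost its call without Nop16 siRNA replicate 1 (0.0593) or control replicate 3 (0.0629). Srebf1 counts per Srebf2 count were 0.585, 0.547 and 0.602 in controls and 0.401, 0.401 and 0.408 after Nop16 siRNA, a difference of -0.52 in the mean log2 ratio with no overlap (exact two-sided permutation p = 0.1, 0.12 adjusted over the 6 pairs).

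The enzymes downstream of SREBP1 did not share one direction. Fasn encodes fatty acid synthase, which builds palmitate from malonyl-CoA. Fasn (ENSMUSG00000025153, chr11:120805846-120824547, minus strand) stood at 351, 347 and 368 CPM in controls and at 423, 411 and 415 CPM after Nop16 siRNA, above every control. The difference was 1.17-fold, a log2 fold change of 0.23 (SE 0.0302, edgeR adjusted p = 2.95e-09). Fasn and Abca1 thus rose, and Srebf1 fell, among the 3 genes that carry the element printed above.

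Scd1 and Scd2 encode stearoyl-CoA desaturases, which put the first double bond into saturated fatty acids. They lie near each other on chromosome 19, Scd2 on the plus strand (ENSMUSG00000025203, 44293674 to 44306864) and Scd1 on the minus strand (ENSMUSG00000037071, 44394455 to 44407879). Scd2 was the dominant desaturase, with 1152, 1137 and 1172 CPM in controls and 1005, 1052 and 1009 CPM after Nop16 siRNA, and all 3 of the latter were below every control. Its log2 fold change of -0.17 had an SE of 0.0274 (edgeR adjusted p = 2.31e-07). Scd1, the liver and fat form and the better known LXR target, was at 6.84, 7.87 and 6.43 CPM in controls and 7.17, 6.85 and 6.52 CPM after Nop16 siRNA. These groups overlapped, and the log2 fold change of -0.05 had a 95% interval from -0.33 to 0.23 (edgeR adjusted p = 0.816).

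Multi-mapped fragments were counted for each gene they matched, so the counts of these paralogues are uncertain, and whether Scd2 fragments entered the Scd1 count was not tested. Of the 50-base words in Scd1 transcripts, 4.56% also occurred in another gene, mainly Scd3 and Scd2. Scd1 counts per Scd2 count ran from 0.00549 to 0.00693 in controls and from 0.00646 to 0.00714 after Nop16 siRNA, with overlap (exact two-sided permutation p = 0.3). The paralogue Scd4 fell from 39.6 ± 2.69 to 33.5 ± 1.17 CPM (SD, n = 3 each, log2 fold change -0.24, edgeR adjusted p = 0.0022). Scd3 did not pass (-0.64, edgeR adjusted p = 0.179), and its control replicate 3 had 735 counts beside 443 and 482. Without that library it was lower (-0.31, edgeR adjusted p = 0.00678). Together Scd1 and Scd2 stood at 1161 ± 17.1 CPM in controls and 1029 ± 25.9 after Nop16 siRNA (SD, n = 3 each), while Fasn counts per Scd2 count went from 0.305, 0.305 and 0.314 to 0.421, 0.391 and 0.412, without overlap.

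Lpcat3 encodes the acyltransferase that places polyunsaturated chains into membrane phospholipid, an LXR target in macrophages and liver. Lpcat3 (ENSMUSG00000004270, chr6:124663027-124704418, plus strand) stood at 68.9, 69.99 and 70.7 CPM in controls and at 59.2, 59.5 and 60.9 CPM after Nop16 siRNA. Both groups were tight and did not overlap. The log2 fold change of -0.22 had an SE of 0.0493 (edgeR adjusted p = 0.000143). Of its 50-base transcript words 8.39% also occur in Emg1, searched on both strands together. Counting was stranded, and 0 exonic bases of Lpcat3 overlapped another gene on the same strand. Whether those stretches affected its count was not tested.

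**Figure D3:**
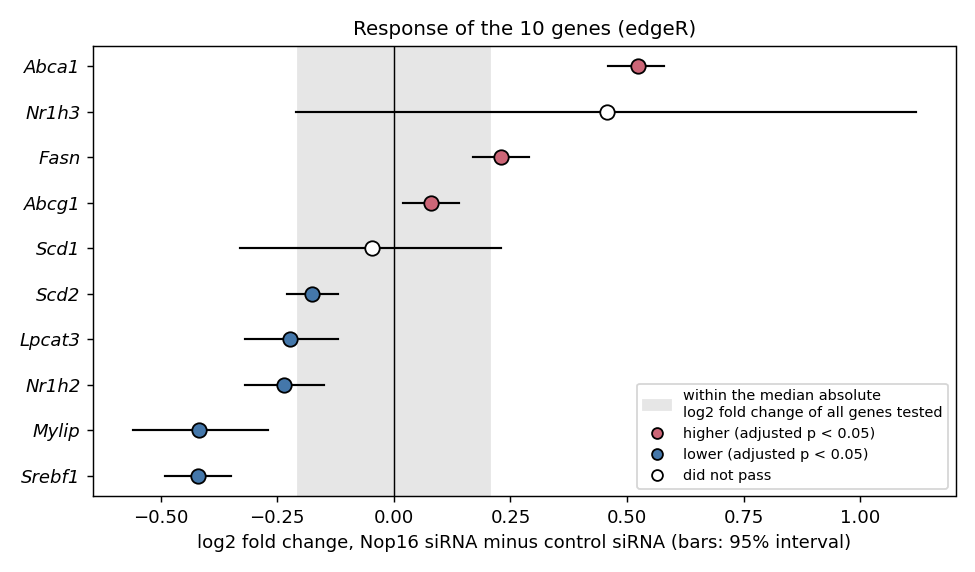
Log2 fold change (Nop16 siRNA minus control siRNA) of each gene with its 95% interval, filled where the edgeR adjusted p was below 0.05. The grey band spans plus and minus the median absolute log2 fold change of all genes tested, 0.206. Abca1 (0.52), Srebf1 and Mylip (both -0.42) lie clear of it, Abcg1 and Scd2 inside it.

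The pair ratios separate unequal moves within one role. Of the 5 pairs given here, 4 had groups of libraries that did not overlap, and Scd1 to Scd2 did overlap. Among all single genes tested, 52.5% had groups that did not overlap. The share among gene pairs at large was not computed, so the count of 4 cannot be read as particular to these pairs. The difference for Nr1h3 to Nr1h2 was 0.63 on the log2 scale, but it was 0.35 without Nop16 siRNA replicate 3 and rests on 17 to 36 Nr1h3 counts per library. With 3 libraries a group no pair could reach a p below 0.1.

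**Figure D4:**
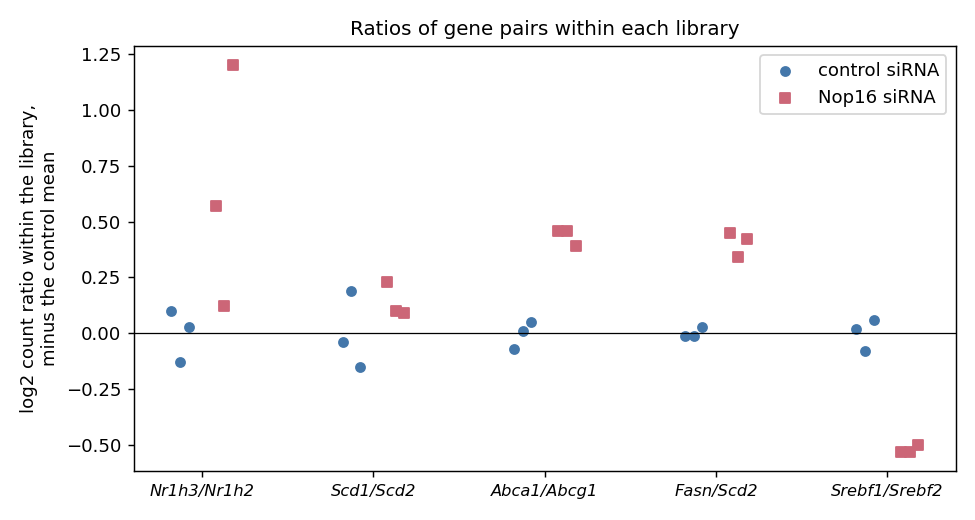
Log2 count ratio of each gene pair within a library, minus the mean of the 3 control libraries, 1 point per library. Srebf1 to Srebf2 (difference -0.52) is lower, and Abca1 to Abcg1 (0.44) and Fasn to Scd2 (0.41) are higher, in all 3 Nop16 siRNA libraries.

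LXR works with a partner receptor, with corepressors that hold its targets down when no ligand is bound, and with coactivators that act when one is. Of 14 genes listed for these opposed roles 13 were tested, and 9 (69.2%, against 45.4% of all genes) were lower and none higher, with a median log2 fold change of -0.14. The 9 lower genes include the coactivator genes Ncoa2, Ncoa3 and Ncoa6. The retinoid X receptor gene Rxra, the partner of LXR, stood at 39.0, 38.8 and 39.6 CPM in controls and 34.1, 33.6 and 33.6 CPM after Nop16 siRNA (-0.21, edgeR adjusted p = 0.00478). The corepressor gene Ncor1 was at 196 ± 7.74 and 180 ± 5.78 CPM (-0.12, 0.00367), and the coactivator gene Ncoa3 at 277 ± 6.59 and 259 ± 4.81 CPM (SD, n = 3 each, -0.10, edgeR adjusted p = 0.00992). Without control replicate 2, 6 were lower, and the calls for Ncor1 (0.0723) and Ncoa3 (0.0642) were lost. Without Nop16 siRNA replicate 2, 7 were lower and 1, the corepressor deacetylase gene Hdac3, was higher, and Ncoa3 was again lost (0.0546). Rxrg had 0 counts.

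Of 15 other LXR targets listed, only 8 could be tested, with 2 higher and 3 lower (62.5% called, against 45.4% of all genes). Lpl, which encodes lipoprotein lipase and frees fatty acids from lipoproteins, fell from 829, 928 and 891 CPM to 419.97, 447 and 409 CPM (-1.05 on the log2 scale, SE 0.0374, edgeR adjusted p = 5.38e-17). No other tested gene of the 11 lists had a larger fall in this fit. Arl4c, a small GTPase gene, fell from 348 ± 2.32 to 293 ± 9.49 CPM (-0.25), and Smpdl3a, a phosphodiesterase gene, from 14.2 ± 0.176 to 9.2 ± 1.08 CPM (-0.63). The 2 that rose were the efferocytosis receptor gene Mertk, from 33.3 ± 2.32 to 55.9 ± 4.0 CPM (0.75), and Cd5l, a secreted scavenger protein gene, from 0.418 ± 0.0739 to 1.89 ± 0.874 CPM (SD, n = 3 each, 2.18, edgeR adjusted p = 3.56e-06). Cd5l was close to the limit of measurement, with 8, 9 and 10 counts in controls and 27, 19 and 52 after Nop16 siRNA. Smpdl3a, Mertk and Cd5l are named here after their values were seen, to account for all 5 calls. The apolipoprotein gene Apoe was low, at 59, 92 and 68 counts in controls and 44, 47 and 49 after Nop16 siRNA, and did not pass (-0.30, edgeR adjusted p = 0.278), nor did Pltp, the phospholipid transfer protein gene (-0.17, 0.691). Abcg8, Apoc4, Mlxipl and Cyp7a1 had 0 counts in all libraries.

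Enzymes that make or remove LXR ligands were few. Of 8 listed, 3 were tested, with 2 higher and none lower (66.7% called, against 45.4% of all genes), too few to read against that share. Dhcr7, which makes cholesterol in the last step of one branch of the pathway, rose from 63.1 ± 1.98 to 90.7 ± 1.1 CPM (log2 fold change 0.52, edgeR adjusted p = 9.96e-15), and the oxysterol-clearing gene Hsd3b7, named after its values were seen, from 63.1 ± 4.91 to 79.4 ± 3.21 CPM (SD, n = 3 each, 0.33). Cyp27a1, which makes a hydroxylated cholesterol that binds LXR, stood at 81.1 and 77.4 CPM and did not pass (-0.06, edgeR adjusted p = 0.292). Ch25h, the cholesterol hydroxylase of activated macrophages, was below the level for testing, with 2, 1 and 2 counts in controls and 9, 7 and 9 after Nop16 siRNA.

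Of the genes that control SREBP processing, all 11 listed were tested, with 5 higher, 1 lower and 5 not passed (54.5% called, near the 45.4% of all genes), and a median log2 fold change of 0.12. Insig1, which holds SREBP in the endoplasmic reticulum and is itself an SREBP target, stood at 69.2 to 71.9 CPM in controls and was higher after Nop16 siRNA, at 97.5 to 102 CPM (0.51 on the log2 scale, SE 0.0447, edgeR adjusted p = 4.69e-15). Scap, the escort that carries SREBP to the Golgi, stood at 49.7 ± 2.76 and 54.2 ± 1.79 CPM (SD, n = 3 each) and did not pass (0.12, edgeR adjusted p = 0.0631), except without control replicate 1 (0.0266). Mbtps1, which encodes the protease that first cuts SREBP and was the 1 gene lower, fell by 0.16 on the log2 scale.

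Of 28 other genes of fatty acid synthesis and elongation, 24 were tested, with 7 higher, 5 lower and 12 not passed, a called share near the 45.4% of all genes, and a median log2 fold change of 0.02. Acly, which supplies cytosolic acetyl-CoA, rose from 173 ± 4.68 to 193 ± 3.49 CPM (0.16, edgeR adjusted p = 6.69e-05). Acaca, the acetyl-CoA carboxylase that commits it to fatty acids, stood at 53.2 ± 0.872 and 51.0 ± 0.186 CPM (SD, n = 3 each) and did not pass (-0.06, edgeR adjusted p = 0.384). Me1, a source of NADPH for synthesis, did not pass either (0.00, 0.972). The polyunsaturated fatty acid desaturases diverged. Fads1 fell from 234 ± 3.57 to 195 ± 7.2 CPM (-0.26, edgeR adjusted p = 1.28e-09), and Fads2 rose from 50.04 ± 0.374 to 62.7 ± 1.15 CPM (SD, n = 3 each, 0.33, edgeR adjusted p = 4.08e-07). Elovl6, the elongase that extends palmitate and a usual SREBP1 target, had 0 counts in every library.

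Genes of glycerolipid and phospholipid acylation other than Lpcat3 mostly rose. Of 20 such genes 18 were tested, with 13 higher and 3 lower (88.9% called, against 45.4% of all genes) and a median log2 fold change of 0.20. The list also holds Lpin1, Lpin2 and Pcyt1a, which do not encode acyltransferases and were among the 13 higher. Agpat1, which makes phosphatidic acid, rose from 124 ± 3.11 to 146 ± 3.77 CPM (0.24, edgeR adjusted p = 3.89e-07), and Mboat7, which puts arachidonate into phosphatidylinositol, from 79.5 ± 2.45 to 89.0 ± 2.07 CPM (SD, n = 3 each, 0.16, edgeR adjusted p = 0.00248). Without control replicate 3, 1 gene was lower, because Gpam (0.145) and Agpat3 (0.0989) then did not pass. Of 7 fatty acyl-CoA synthetase and transport genes 6 were tested, with 4 higher and none lower (66.7% called, against 45.4% of all genes). Slc27a1, a fatty acid transport protein gene, rose from 301 ± 4.21 to 374 ± 6.77 CPM (SD, n = 3 each, 0.31, edgeR adjusted p = 1.95e-13), and Acsl5 did not pass (0.06, 0.189). Acsl3, whose promoter held the looser form of the element, rose by a log2 fold change of 0.31 (edgeR adjusted p = 4.12e-09), and it is named here for that match. The values of further genes with that form, among them Haao, Prrg4 and Tmco4, are not given here. Whether genes with that form share a direction was not tested.

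**Figure D5:**
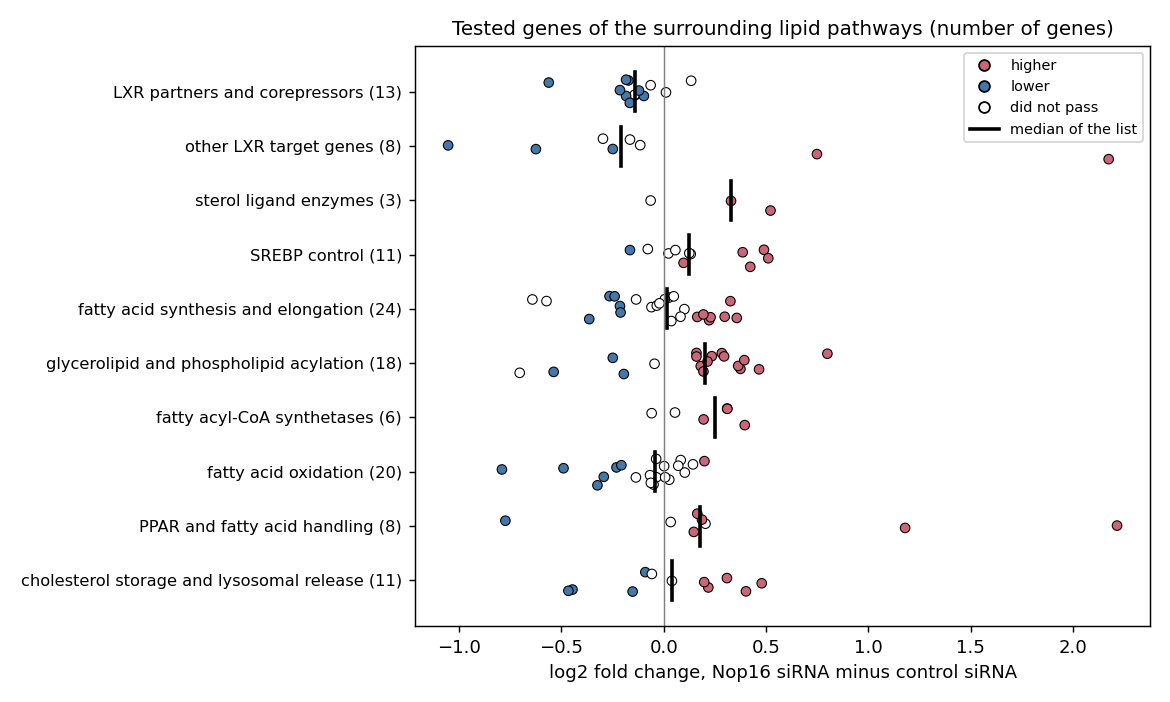
Log2 fold change (Nop16 siRNA minus control siRNA) of each tested gene in 10 lists around the LXR pathway, 1 point per gene, filled where the edgeR adjusted p was below 0.05, with the median of each list as a bar. The LXR partners and cofactors lie mostly below 0 (median -0.14), the acylation genes mostly above (0.20), and the synthesis genes on both sides (0.02).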

How the data were processed

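The authors deposited raw counts of fragments per gene. Per the file headers they were made with featureCounts 2.0.1 on a filtered Ensembl 101 annotation of GRCm38, in paired mode, with strand setting 2, a minimum overlap of 10 bases, and counting of multi-mapped and multi-gene fragments. HISAT2 2.2.1 and Trim Galore are named in the submitters' processing notes. A fragment can count for several genes, so paralogues such as Scd1 to Scd4 are uncertain. Symbols came from a table of gene names and matched 55141 of 55401 identifiers. Transcript words came from GENCODE transcripts of the same build, and promoters from RefSeq on GRCm38.p6.

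Counts were compared with edgeR 4.0.16 (R 4.3.3), using the quasi-likelihood test with robust dispersion, TMM scaling and filterByExpr, with Benjamini-Hochberg adjustment over all genes tested and a threshold of 0.05. Log2 fold changes are signed as Nop16 siRNA minus control. In simulated counts for 14076 genes of this comparison, 48% of genes changed 1.2-fold were recovered, 98% at 1.5-fold, and 12 of 185 calls were false. Only 50 genes were changed at each fold (1.2, 1.5, 2 and 3), all at 5 CPM or more in controls. In the data 45.4% of genes were called, so the simulated shares do not carry over to the data. DESeq2 1.42.0, limma 3.58.1 (voom), other scalings and filters, a replicate block, thinning and leaving out each library were alternatives. The 10 genes and the lists were chosen with earlier results of these data known. The named genes are Nop16, the 10 genes, 15 fixed others, and the 2 most abundant tested genes of each of 11 lists. Any other gene given with a value was named after its values were seen. Some of these genes, 1 list and 1 gene pair are not reported here.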

Additional observations from a re-analysis of the deposited data

How the results depend on the processing

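The calls and directions of Nr1h2, Abca1, Mylip, Srebf1, Fasn, Scd2 and Lpcat3 held in all 16 alternatives, with edgeR, DESeq2 or limma-voom adjusted p no higher than 0.00134. The log2 fold change of Abca1 ran from 0.50 to 0.55, and those of Srebf1 and Mylip from -0.45 to -0.40. Abcg1 lost its call in DESeq2 (0.08), with library size only (0.06), with no filter (0.07), with thinning to equal depth (0.07) and with upper-quartile scaling (0.07), and leaving out single libraries gave 0.06 to 0.10. Nr1h3, which had no value with the filter of 5 CPM, and Scd1 passed in none, and the value of Scd1 ran from -0.13 to 0.04. Leaving out single libraries gave 0 to 1 higher gene among LXR partners, 1 to 3 lower acylation genes and 2 to 4 lower cholesterol storage genes. With the filter of 5 CPM in 3 libraries 1 other LXR target was higher, because Cd5l, at no more than 2.82 CPM, was then not tested. Scaling by library size only turned the share of higher genes among all calls from 50.7% to 45.9%. Same-numbered libraries did not deviate together (correlations 0.0175, -0.0198 and -0.0223), so the numbers were not taken as pairs. With a replicate block 3241 genes were higher and 3188 lower over all genes, the 10 genes again gave 3 and 5, and Abcg1 had an edgeR adjusted p of 0.0328. Among the 10 genes, depth limits mainly Nr1h3, at 17 to 36 counts.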

Other observations

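Of 8 tested genes of the PPAR and fatty acid handling list, 5 were higher and 1 lower (6 of 8 called, against 45.4% of all genes tested). The lipid droplet coat genes Plin2 and Plin3 rose from 337 ± 11.8 to 384 ± 9.06 CPM and from 216 ± 5.6 to 242 ± 8.61 CPM (SD, n = 3 each), with log2 fold changes of 0.19 and 0.16. The fatty acid binding protein gene Fabp5 rose from 75.3 ± 1.54 to 171 ± 15.7 CPM (1.18, edgeR adjusted p = 8.81e-17), and Fabp4 from 24, 11 and 10 counts to 47, 61 and 58 counts (2.22, edgeR adjusted p = 1.02e-08). The scavenger receptor gene Cd36 and the nuclear receptor gene Pparg had at most 3 counts in any library. Fabp5 and Fabp4 were singled out after their values were seen.

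Of 20 fatty acid oxidation genes, all tested, 1 was higher and 6 lower (35.0% called, against 45.4% of all genes tested). Acadl, an acyl-CoA dehydrogenase gene, fell from 117 ± 0.744 to 93.4 ± 4.96 CPM (SD, n = 3 each, log2 fold change -0.32, edgeR adjusted p = 2.04e-09), and Hadha did not pass (0.01, 0.913). Cpt1a, which admits fatty acids into mitochondria, had the largest fall of that list (-0.79, edgeR adjusted p = 3.87e-15) and was singled out after its value was seen. In the cholesterol storage and lysosomal release list, 5 of 11 tested genes were higher and 4 lower (81.8% called, against 45.4% of all genes tested). Npc2, which moves cholesterol out of the lysosome, rose from 516 ± 17.4 to 592 ± 2.43 CPM (0.20, edgeR adjusted p = 5.17e-08). The acid lipase gene Lipa stood at 536 ± 10.1 and 504 ± 21.3 CPM (SD, n = 3 each, -0.09, edgeR adjusted p = 0.0108), and its call was lost without Nop16 siRNA replicate 1 (0.123) or control replicate 2 (0.0518). Without control replicate 2, 2 of these genes were lower. Soat1, which esterifies cholesterol for storage, did not pass (-0.06, edgeR adjusted p = 0.15), except with scaling by library size only (-0.08, 0.0399).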
